A study of Rattus norvegicus with 3 samples.

Results

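The peroxisome proliferator-activated receptor (PPAR) genes Ppara, Ppard and Pparg and the retinoid X receptor (RXR) genes Rxra, Rxrb and Rxrg were followed in kidney inner medulla of lithium-treated rats against that of control rats. They were chosen by gene symbol from the annotation of a spotted array, where each of the 6 genes was found, on 7 of 5760 probes and among 4390 named genes. Of the 6 genes, 5 had a value on all 3 arrays, and Rxrb had one on arrays 1 and 2. The rats had received lithium for 1 month. On every array, RNA of lithium-treated rats was labelled red and RNA of control rats green, so dye and treatment cannot be told apart. On arrays 1 and 2 each channel pooled 2 rats, and on array 3 it held 1 rat. The labels do not give strain, age, sex or lithium dose.

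PPARs are nuclear receptors that fatty acids and their derivatives activate. Each PPAR pairs with an RXR, which itself binds retinoid ligands, and the pair binds short repeats in DNA and controls genes of lipid uptake, storage and oxidation. In the kidney, Pparg is known mainly from the medullary collecting duct, where drugs that activate it promote sodium and water retention. Ppara is known mainly from the proximal tubule, where it supports fatty acid oxidation, and Ppard is known to be widely expressed. Long lithium treatment is known to bring on nephrogenic diabetes insipidus, a failure of the collecting duct to answer vasopressin.

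A value is the deposited log ratio of a probe less the median of its array, so 0 marks the typical probe and a positive value was read as higher in lithium-treated medulla. The base of the logarithm was not stated, and a fold is given for base 10 and for base 2. That direction is only likely: lithium RNA was channel 1 in the labels, and the table itself states none. Aqp2, a water channel that lithium is known to lower, had a mean of 0.17 ± 0.08 (SD, n = 3), which leaves the direction in doubt. If it ran the other way, every sign below would turn. The family was picked from results of this same comparison, the lithium-over-control ratios, so the receptors' values are a description and carry no test. In tissue RNA, fewer cells of a type and less RNA per cell cannot be told apart.

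The number of probes with a value was 5582, 5682 and 4287 on arrays 1, 2 and 3. Across the 3819 genes or unnamed probes with a value on every array, called features below, the ratios of arrays 1 and 3 correlated with r = 0.48, those of arrays 1 and 2 with r = 0.46 and those of arrays 2 and 3 with r = 0.16. No intensities were used here, so brightness is unknown and the number of arrays limits the precision.

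Pparg, the receptor that drives fat cell differentiation and is the target of the thiazolidinedione drugs, had the lowest ratio of the 6 receptor genes. Its single probe read −0.29, −0.43 and −0.20 on arrays 1, 2 and 3. All 3 arrays were below 0, with array 2 lowest and array 3 nearest to 0. The mean was −0.31 ± 0.12 (SD, n = 3), or 0.494 times control if the base is 10 and 0.809 times if it is 2. This mean stood at rank 19 from the lowest of 3819 features. On the single arrays, 0.733%, 1.02% and 4.37% of features lay at or below the Pparg value. Among these features, Pparg therefore stood far down the low tail on arrays 1 and 2 and less far on array 3. Genes or probes without a value on every array are left out here. Probes empty on array 3 ran low, with medians of −0.08 and −0.18 on arrays 1 and 2. Among features on at least 2 arrays, the same mean ranked 193 of 4930 from the lowest. Without array 3, Pparg had a mean of −0.36 and rank 148 of 4902. Its print block, the group of 180 spots around it, had medians of 0.07, −0.025 and 0.12. Measured against that block, Pparg stood at −0.36, −0.405 and −0.32. This was lower than against the whole array on arrays 1 and 3, and slightly nearer to 0 on array 2. Arrays 1 and 2 had a long low tail, with 3.46% and 9.73% of all probes more than 0.3 below the median, against 1.03% on array 3. The part of this tail in the Pparg value was not tested.

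The Pparg probe was annotated with a transcript accession that the current RefSeq table lists under Pparg, as 1 of 6 transcripts, and the probe's own sequence was not used here. Pparg is transcribed from separate starts, which give the widely expressed and the fat-enriched form of the protein, and the ratio does not say which start it reflects. The RefSeq promoter table (assembly GRCr8) held 2 starts for Pparg, both on the plus strand. The 250 bases before each are shown, with CG dinucleotides in capitals. The annotated span of the gene begins at position 150095743, upstream of both, so these starts need not be all of them. Neither start was linked to the transcript of the probe.
Pparg start 1, chr4:150096808-150097057: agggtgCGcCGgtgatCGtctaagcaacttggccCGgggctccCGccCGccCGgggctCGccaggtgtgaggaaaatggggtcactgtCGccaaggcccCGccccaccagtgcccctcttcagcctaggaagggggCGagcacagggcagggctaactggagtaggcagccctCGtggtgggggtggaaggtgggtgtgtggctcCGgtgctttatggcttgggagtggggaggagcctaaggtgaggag
Pparg start 2, chr4:150154522-150154771: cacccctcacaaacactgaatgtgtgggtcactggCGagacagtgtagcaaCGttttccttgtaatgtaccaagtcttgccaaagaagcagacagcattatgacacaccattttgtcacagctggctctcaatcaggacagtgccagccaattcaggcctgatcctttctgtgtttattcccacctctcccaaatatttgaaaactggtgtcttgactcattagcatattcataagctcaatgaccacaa
The upstream start had 67.2% G and C and 13 CG dinucleotides, and the downstream start had 44.8% and 2. Over all 33469 promoters of the table the medians were 51.2% and 5. The core motif of this receptor class, AGGTCA, searched on both strands in the same 250 bases, occurred in 0 of the 6 promoters listed for Ppara, Pparg, Rxra, Rxrb and Rxrg, and in 14.1% of all promoters. A direct repeat of it with 1 base between, which contains the core motif, occurred in 0 of the 6 and in 0.0508% of all. Ppard was not in this table.

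The other PPAR genes stood close to 0. Ppara, the receptor that induces fatty acid oxidation, read 0.15, −0.09 and 0.01 on arrays 1, 2 and 3. Array 1 was high and array 2 low, and the mean of 0.02 ± 0.12 (SD, n = 3) was smaller than the spread. It was 0.12 with array weights and −0.04 without array 1. Ppard, known for control of fat use in muscle and other tissues, read 0.03, 0.22 and 0.00. Array 2 alone lay well above 0, and the mean was 0.08 ± 0.12. On array 2, 98.4% of features lay at or below the Ppard value, while on arrays 1 and 3 it was near the middle, at 61.1% and 51.1%.

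The RXR genes, which encode the shared partners, also stood close to 0 where all 3 arrays measured them. Rxra, the RXR known as the main form in liver and kidney, read 0.01, 0.14 and 0.01, with a mean of 0.05 ± 0.08 (SD, n = 3). All 3 values lay above 0, and arrays 1 and 3 barely so. Rxrb, a broadly expressed RXR, read −0.01 and −0.20 on arrays 1 and 2 and had no value on array 3. Probes empty on array 3 had medians of −0.08 and −0.18 on arrays 1 and 2, against 0.01 and 0.04 for probes measured there. The Rxrb value was near the first of these groups on array 2 and near the second on array 1. Rxrg, the RXR known mainly from muscle and brain, was on 2 probes. The first read 0.10, −0.17 and 0.10 and the second −0.13, −0.03 and 0.05, so they had opposite signs on array 1. Their average read −0.015, −0.10 and 0.075, with a mean of −0.01 ± 0.09.

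**Figure D1:**
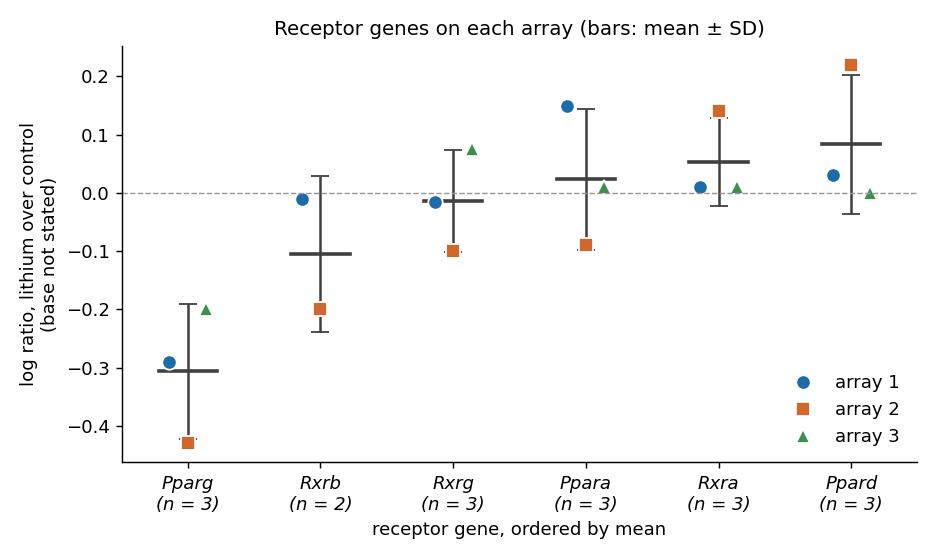
Log ratio (lithium over control, base not stated) of each receptor gene on each array, with the mean as a line and the SD as a bar, ordered by mean. Pparg lies between −0.43 and −0.20, while the means of the genes measured on 3 arrays other than Pparg lie between −0.01 and 0.08, and Rxrb has 2 points only.

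Ordered by mean, Ppard, Rxra, Ppara and Rxrg lay between 0.08 and −0.01, and no neighbours in this order differed by more than their SDs of 0.08 to 0.12. Pparg was below each other receptor gene on each array where both were measured. Pparg less Rxrg was −0.275, −0.33 and −0.275 on arrays 1, 2 and 3, the steadiest of these differences, and Pparg less Ppara was −0.44, −0.34 and −0.21. Against Ppard the difference varied more, with −0.32, −0.65 and −0.20, because array 2 held both the lowest Pparg value and the highest Ppard value. Array 2 was the array on which the family was most spread, from −0.43 to 0.22.

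Of the 5 receptor genes measured on all arrays, 0 passed a limma adjusted p of 0.05, which 17 of 3819 features (0.445%) did, and 1 of the 5, Pparg, had an unadjusted p under 0.05, as did 17.2% of features. Pparg had values below 0 on all 3 arrays, as did 14.6% of features, and Rxra had values above 0 on all 3, as did 24.1%. With each array centred on the 3819 features instead of all its probes, Pparg stayed below 0 on all 3 arrays, while Rxra read 0.00 on array 1. The median of the 5 means was 0.02, against 0.01 over all features. Since the family was proposed from this comparison, nothing is read from these counts.

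**Figure D2:**
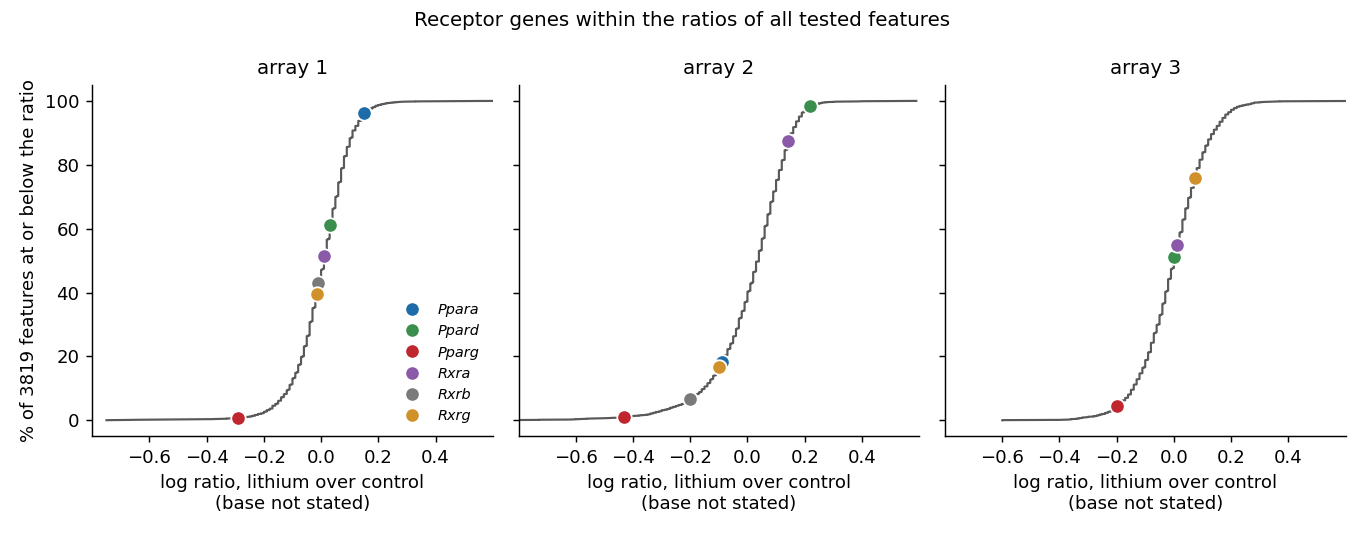
Share of the 3819 features at or below each log ratio (grey curve) on arrays 1, 2 and 3, with the receptor genes as points. Genes or probes without a value on every array are left out, and probes empty on array 3 ran low on arrays 1 and 2. Pparg is the lowest receptor on every array, at 0.733%, 1.02% and 4.37% of features, Rxrb is absent on array 3, and the Ppara point on array 3 lies under that of Rxra at the same ratio of 0.01.

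Genes that act with these receptors or downstream of them were taken from 7 lists, whose choice, like that of the receptors, was made with earlier results of these arrays known. Of 165 listed genes 86 were measured on all 3 arrays. Of these 86, 1 was higher and 0 were lower at a limma adjusted p of 0.05, against 0.236% and 0.209% of all features. An unadjusted p under 0.05 was found for 21 of the 86 (24.4%), against 17.2% of all features. Their median log ratio was 0.03, against 0.01 over all features. Genes without a value on every array are left out of the counts and medians of each list. Probes empty on array 3 ran low, with medians of −0.08 and −0.18 on arrays 1 and 2, against 0.01 and 0.04 for probes measured there. Counts above and below 0 also move with the centring. Centred on the 3819 features instead, the receptors that share RXR had 7 above 0 and 4 below, the coregulators 3 and 3, and the fatty acid oxidation genes 15 and 10, while the lipid ligand list kept 5 and 8.

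Receptors that share RXR as a partner, such as those for thyroid hormone, vitamin D, oxysterols and retinoic acid, showed small ratios. Of 11 measured, 9 lay above 0 and 2 below. Their median was 0.04 and their range ran from −0.06 to 0.13. None passed, and 1 had an unadjusted p under 0.05. Nr4a2, an orphan receptor induced by many stimuli, read 0.02, 0.16 and 0.20. Its relative Nr4a1 read 0.01, 0.24 and 0.11, and Vdr, the vitamin D receptor, read 0.09, 0.18 and −0.03. The limma adjusted p ran from 0.246 for Nr4a2 to 0.448 for Vdr. Array 1 was the lowest of the 3 for both Nr4a genes.

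Coregulators, the proteins that these receptors recruit to switch transcription on or off, did not pass either. Of 7 measured, 5 lay above 0 and 2 below, and the median was 0.02, while 2 had an unadjusted p under 0.05 in limma. Ncoa3, a coactivator, read −0.08, −0.37 and −0.09 (limma adjusted p = 0.218), and Ncor1, a corepressor, read −0.17, −0.20 and −0.01 (adjusted p = 0.256). For Ncoa3 array 2 was far lower than the others. Hdac2, a histone deacetylase found in corepressor complexes, read 0.09, 0.10 and 0.08 (adjusted p = 0.293). Ppargc1a, the coactivator named for its binding to Pparg and known for driving mitochondrial biogenesis, had a mean of 0.02 ± 0.25 (adjusted p = 0.944).

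Fatty acid oxidation genes known as PPAR targets had no common direction. Of 31 on the array, 25 had a value on all 3 arrays, of which 16 lay above 0 and 9 below. Their median was 0.03, and 0 passed, while 4 had an unadjusted p under 0.05. Of the 6 genes left out, Acox2 had a mean of 0.06. The others lay below 0, from −0.35 for Slc27a2 to −0.10 for Acox3. Acadm, the medium-chain acyl-CoA dehydrogenase, read −0.28, −0.25 and −0.15, below 0 on every array (limma adjusted p = 0.0918). The thiolase genes Acaa1a of peroxisomes, at −0.18 ± 0.13, and Acaa2 of mitochondria, at −0.12 ± 0.06 (SD, n = 3), were below 0 on every array as well (adjusted p = 0.176 and 0.229). Ehhadh of the peroxisomal pathway and Cpt1a, the gate of mitochondrial fatty acid entry, stood at 0.09 ± 0.08 and 0.03 ± 0.07.

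Lipid storage genes, many of them Pparg targets in fat, were poorly covered. Of 14 on the array, 9 had a value on all 3 arrays, of which 5 lay above 0 and 4 below. The median was 0.03, 0 passed, and 1 had an unadjusted p under 0.05. Me1, a source of reducing power for fat synthesis, read −0.20, −0.09 and −0.14 (limma adjusted p = 0.176). Cebpb, a transcription factor upstream of Pparg in fat cells, read −0.14, 0.05 and −0.21 (adjusted p = 0.397). Aqp7, the glycerol channel of fat cells, read 0.00, 0.12 and 0.06 (adjusted p = 0.506). Cd36, the fatty acid transporter, read 0.04 and −0.48 on arrays 1 and 2, a mean of −0.22, and was empty on array 3. The other genes empty on array 3 also had means below 0: Slc2a4 −0.39, Gpd1 −0.17, Scd −0.11 and Lep −0.06. The counts and median above leave these genes out.

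Genes that carry or make lipid ligands had the lowest median of the 7 lists, −0.05, with 5 of 13 above 0 and 8 below. None passed, and 7 had an unadjusted p under 0.05, 5 lower and 2 higher. Fabp4, the fatty acid carrier that Pparg induces in fat cells and macrophages, read −0.18, −0.165 and −0.34 (limma adjusted p = 0.117). Its 2 probes disagreed: one read −0.40, −0.44 and −0.57 and the other 0.04, 0.11 and −0.11. Tested as single probes among 4250, the first passed at −0.47 ± 0.09 (SD, n = 3, adjusted p = 0.0217) and the second did not at 0.01 ± 0.11 (adjusted p = 0.930). Fabp5, a carrier that delivers ligands to Ppard, read −0.23, −0.06 and −0.38 (adjusted p = 0.169). Ephx2, the soluble epoxide hydrolase that breaks down epoxy fatty acids, read −0.12, −0.09 and −0.19 (adjusted p = 0.183). For Fabp4, Fabp5 and Ephx2 alike, array 3 was the lowest array, whereas for Pparg it was the one nearest to 0.

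**Figure D3:**
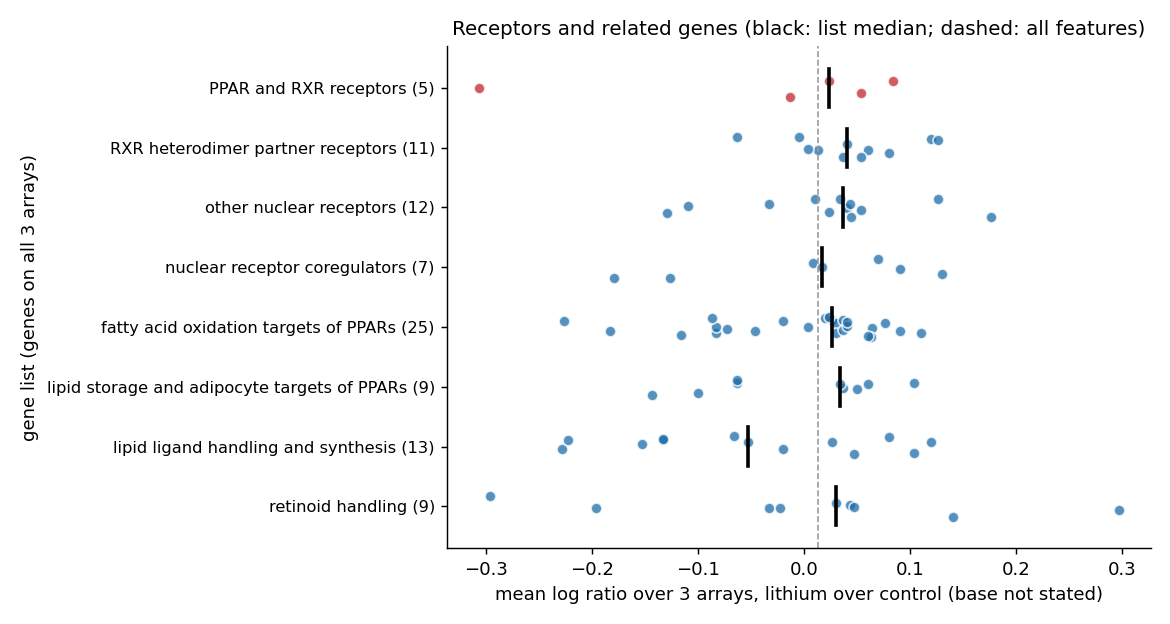
Mean log ratio over 3 arrays (lithium over control, base not stated) of the receptor genes, in red, and of each gene of the 7 related lists, in blue, with list medians in black and the median of all features dashed. Pparg stands apart at −0.31 in the top row, and the lipid ligand list has the lowest median, −0.05.

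Among genes that make and carry retinoids, the source of RXR and retinoic acid receptor ligands, 1 rose. Aldh1a1, which oxidises retinaldehyde to retinoic acid, read 0.33, 0.31 and 0.25, a mean of 0.30 ± 0.04 (SD, n = 3, limma adjusted p = 0.0451). With 1 array left out, where 0 of all features were called, its limma adjusted p was 0.743, 0.297 and 0.275 without arrays 1, 2 and 3. It was 0.0519 among features on at least 2 arrays and 0.0505 as single probes. With no shared prior the adjusted p was 0.345. Crabp2, which carries retinoic acid to its nuclear receptor, read −0.23, −0.50 and −0.16 (adjusted p = 0.126), below 0 on every array with array 2 lowest, as for Pparg. Adh4, an alcohol dehydrogenase that can oxidise retinol, read 0.11, 0.20 and 0.11 (adjusted p = 0.176). Of the 9 genes measured, 5 lay above 0 and 4 below, and the median was 0.03.

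**Figure D4:**
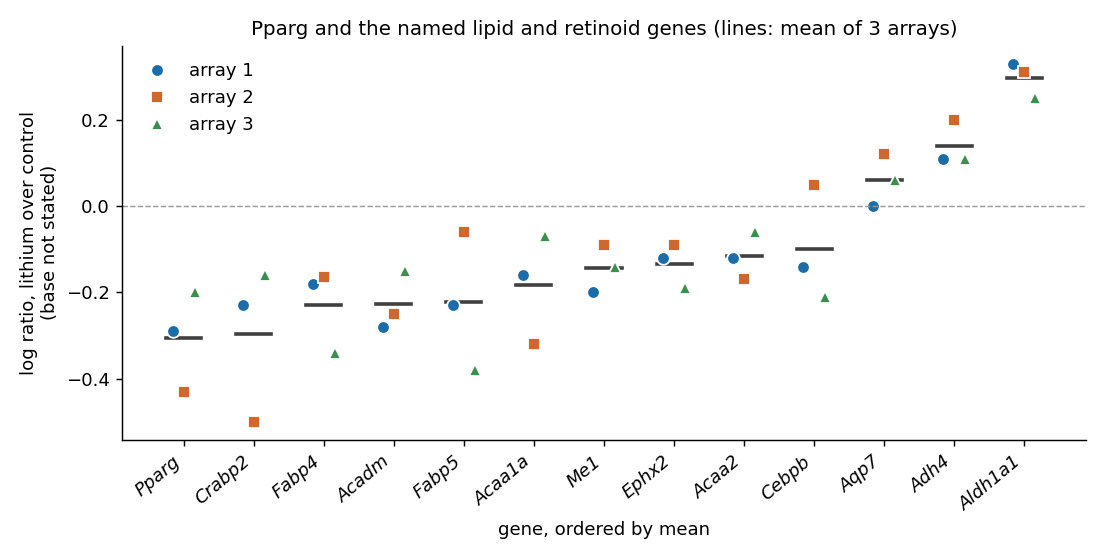
Log ratio (lithium over control, base not stated) of Pparg and of the 3 genes with the smallest p-value in each of the lipid and retinoid lists, per array, with the mean as a line. Pparg and Crabp2 have their lowest value on array 2, Fabp4 and Fabp5 on array 3, and Aldh1a1 lies above 0.2 on all 3 arrays.

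Markers of the cells the tissue could hold were set beside the receptors, but log ratios give no level, so neither summed levels nor absent markers can be stated. All 8 markers of collecting duct principal cells were measured on all 3 arrays and had means above 0. Their median was 0.15 and their range ran from 0.01 to 0.49. Centred on the 3819 features, 7 had means above 0. In the main fit 1 of the 8, Hsd11b2, passed (limma adjusted p = 0.0234), as did 0.445% of features. An unadjusted p under 0.05 was found for 7 of the 8, against 17.2% of features. Pparg, known from these ducts, had a mean of −0.31, and the part of principal cells in its ratio was not tested. Of the adipocyte markers, 4 of 8 were on the array. Fabp4 is given above, Cfd read −0.15, 0.07 and −0.14, Lipe −0.14, 0.13 and 0.32, and Lep −0.04 and −0.08 on arrays 1 and 2. They had no common direction, and the part of fat cells in the Pparg ratio was not tested. The 6 proximal tubule markers on all arrays had a median of 0.08 (4 above 0) and the 6 leukocyte markers 0.02 (4 above 0). The leukocyte means ran from −0.39 for Itgam to 0.16 for Cd4, and Itgam read −0.55, −0.56 and −0.05 on arrays 1, 2 and 3. The 3 endothelial markers had a median of 0.05 (2 above 0) and the 3 thin limb markers −0.11 (0 above 0). The 8 fibroblast and smooth muscle markers had a median of 0.00, the 3 thick limb markers −0.03, and the 2 intercalated cell markers 0.02.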

How the data were processed

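The deposited values were 2-colour log ratios with 2 decimals for 5760 probes on 3 arrays. No source used here gives the base, scanner, background correction, normalization, centring or direction. Medians of the deposited columns were −0.02, −0.04 and 0.00. Per the labels, channel 1 (red) held lithium RNA. Probes were named from the platform's annotation: 5064 had 1 symbol, 9 had several and 687 were not listed, and 5043 gene IDs matched the RefSeq table of GRCr8.

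Each array's median was subtracted and probes of 1 gene were averaged. The 3819 features on all 3 arrays were fitted with an intercept-only model in limma 3.58.1 (R 4.3.3), two-sided, with Benjamini-Hochberg adjustment at 0.05. Tested on simulated noise for the same 3819 features, the fit recovered 91% of shifts of 0.3 and 100% of shifts of 0.5, and called 5 of 3619 unshifted features. This checks the fit and not its recovery on the real arrays. Each array was 1 replicate of a direct comparison. The labels give the arrays different rats.

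The receptors and lists were chosen with earlier results of these data known. Named were all receptor genes, in each related list the 3 genes with the smallest p-value and any called gene, and the 3 nearest genes of each receptor by Euclidean distance. Cpt1a, Ehhadh, Ppargc1a, Cd36, Aqp2 and the marker genes were named outside this rule. Alternatives were other centrings, scaling, array weights, each array left out, features on at least 2 arrays, single probes, other priors and a threshold of 0.10. Figures were drawn with matplotlib 3.10.9 in Python 3.11.15.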

Additional observations from a re-analysis of the deposited data

How the results depend on the processing

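The receptors' median log ratio of 0.02 stayed within its spread over arrays (SD 0.06) in all 10 alternatives tried. All 51 values of single receptor genes under the alternatives moved by less than 1 SD, although Ppara was 0.12 with array weights and −0.04 without array 1, and Rxrg 0.03 without array 2. Pparg ranged from −0.245 without array 2 to −0.36 without array 3 and block-wise. Its rank from the lowest was 14 to 34 under other centrings, scaling, array weights and without array 1 or 2, against 148 of 4902 without array 3 and 193 of 4930 on at least 2 arrays. Counts of calls moved more. Over all features they were 98 after scaling, 1055 with array weights, 40 on at least 2 arrays, 11 as single probes, 94 with a robust prior, 8 with no shared prior, 49 at an adjusted p of 0.10, and 0 in limma with any 1 array left out, where 174 to 734 had an unadjusted p under 0.05. Scaling gave 35 higher and 63 lower, and features on at least 2 arrays 4 higher and 36 lower, against 9 and 8. Related genes called were 4 after scaling, 26 with array weights, 0 on at least 2 arrays, 4 with a robust prior, 0 with no shared prior, 2 at 0.10 and 0 with any 1 array left out (8 to 20 unadjusted). Aldh1a1 was not called on at least 2 arrays (adjusted p = 0.0519), with no shared prior (adjusted p = 0.345) or as single probes (adjusted p = 0.0505), where the 1 related gene called was Fabp4. No receptor gene was called in the main fit. Pparg was called with block-wise centring, where 20 features were called in all. It was also called after scaling, with array weights, with a robust prior and at an adjusted p of 0.10. Ppara was called with array weights, and no receptor gene in the other settings. Since the family was picked from this comparison, nothing is read from these calls. The causes of these moves were not tested. Of 56 list medians, 12 moved by over 1 SD, by at most 0.0729 (coregulators, array weights). The lipid storage median changed sign within its spread, to −0.035 without array 2 and −0.07 with array weights, as did the coregulators, to −0.00333 with no centring. Each array is already 1 lithium-against-control pair, so the fit to its ratios is paired by array and no other pairing was possible. The number of arrays, with brightness unknown, limits the precision.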

Other observations

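The gene whose ratios were nearest to Pparg across the 3 arrays was Gys2, the liver form of glycogen synthase, with −0.32, −0.45 and −0.16 and a Euclidean distance of 0.0539. Next came Plk2, a polo-like kinase, with −0.22, −0.42 and −0.15 (distance 0.0866), and Crabp2 (distance 0.1005). Of 3395 named genes, 0 lay within 0.05 of Pparg, 106 within it of Rxra, 27 of Rxrg, 26 of Ppard and 5 of Ppara. Genes are sparse in the low tail, where Pparg stood, and dense near 0. The count for Pparg therefore restates its place in the tail and adds nothing to its rank. The nearest genes were Csnk1e, F13a1 and Tnfrsf1a for Rxra, Chp1, Mta1 and Homer1 for Rxrg, Clpb, Ppp3r1 and Pex19 for Ppard, and Fgfr2, Akr7a2 and Cox7a2 for Ppara, at distances from 0.00707 to 0.0316. These distances rest on 3 arrays and are descriptions.

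Other nuclear receptors, outside the PPAR and RXR pairs, had small ratios as well. Of 12 measured on all arrays 9 lay above 0 and 3 below. The median was 0.04, and 0 passed limma's adjusted p of 0.05, while 3 had an unadjusted p under 0.05. Among genes left out for an empty array, means ran from −0.28 for Rorb to −0.115 for Nr0b2. Nr2f6, an orphan receptor of the COUP-TF group, read 0.24, 0.08 and 0.21 (adjusted p = 0.150). Nr2f2, another receptor of that group, read 0.15, 0.18 and 0.05 (adjusted p = 0.215). Nr1d1, a receptor of the circadian clock, read −0.17, 0.00 and −0.22 (adjusted p = 0.262). The corticosteroid receptor genes Nr3c1 and Nr3c2 stood at 0.05 ± 0.07 and 0.04 ± 0.04 (SD, n = 3).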
